A study of Rattus norvegicus with 6 samples.

Results

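Rpl13a encodes a protein of the large ribosomal subunit, and its introns carry box C/D small nucleolar RNAs (snoRNAs) of the Snord32, Snord33, Snord34 and Snord35 families. Members were chosen by name: every row of the deposited table whose symbol is Snord32, Snord33, Snord34 or Snord35, with or without a final a or b, plus Rpl13a itself. This gave 8 of 32883 rows, of which 7 were snoRNA rows. 3 rows carried the symbol SNORD33 and 2 carried SNORD34, Snord35a and Snord35b had a row each, and 0 rows carried a Snord32 symbol. A mean of at least 5 normalized reads over the 6 libraries, the level required for testing, was reached by 6 of the 8 rows.

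Small RNAs were sequenced from INS-1(832/13)::mCherry cells, a rat insulinoma line used as a β-cell model, which carries a human insulin transgene and a mouse Ins2 transgene fused to mCherry. The 3 control lines (5-9, 2 and 16) lack the imprinted Prader-Willi syndrome (PWS) domain on the silent maternal chromosome, and the 3 PWS lines (3, 19-1 and 19-4) lack it on both chromosomes. The maternal deletion was therefore common to all lines, and all grew without treatment in medium with 7.5 mM glucose. Each line is a clone with 1 library, line 5-9 is the parent of the other lines, and lines 19-1 and 19-4 were subcloned from the same edited line, so the p-values below measure the spread between clones with fewer separate edits than libraries.

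Box C/D snoRNAs are released from introns as a host transcript is spliced and debranched. They bind Nop56, Nop58, Snu13 and the methyltransferase fibrillarin (Fbl), and most guide ribose methylation of ribosomal RNA by base pairing. The snoRNAs within Rpl13a have also been described as mediators of lipid-induced oxidative stress, and their loss in mice has been linked to changed glucose handling and islet function. The question put to these data was whether their levels, or that of the host row, differed between PWS and control β-cell lines. None of the 6 tested rows was called different, where 1.28% of all 4292 genes tested were called, a share at which a count of 0 among 6 rows says little about these rows. In the paper's comparison, nearly all small RNAs that differed came from the PWS domain, which the PWS lines lack by design. The called share is therefore not a rate of response among retained genes.

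The snoRNA genes within Rpl13a share the promoter of their host. Ribosomal protein genes and many snoRNA host genes start transcription in a pyrimidine-rich stretch, the terminal oligopyrimidine tract that couples translation of the mRNA to growth signals. The sequence around the Rpl13a start is shown because it is the shared upstream region of these snoRNAs. It lies at chr1:104748884-104748993 on the minus strand of RefSeq assembly GRCr8, and capitals mark the longest unbroken run of C and T within 30 bases of the start.

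Rpl13a: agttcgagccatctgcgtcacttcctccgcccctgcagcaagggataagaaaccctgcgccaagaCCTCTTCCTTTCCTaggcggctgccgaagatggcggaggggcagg

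The run is 14 bases long and spans positions -15 to -2, with the annotated start as position 0. It thus lies upstream of the annotated transcript, and where transcripts start in these cells was not examined. A run of at least 10 C or T bases, searched for only on the strand that reads as the transcript does, within 30 bases on either side of the start, was present in 10.6% of 33469 promoters of this assembly. It was present in 36.4% of 173 promoters with a Rpl or Rps symbol. These are matches of letters and were not related to any level below.

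Whole reads recovered from the deposited values summed to 7373691 to 16480475 assignments to genes per library, in which a read shared by several genes counts for each, and to 7220865 to 16128958 with such reads left out. Snord116, which lies in the deleted domain, had 4251 to 10516 reads in the control lines and 2 to 3 reads in the PWS lines, which matches the labels. All 14 β-cell marker genes searched for had reads, led by Ins1, at 194 ± 83.2 normalized reads for the control group against 125 ± 51.6 for the PWS group (SD, n = 3). Of the markers of other islet cells reported here, Gcg, Sst, Ppy, Ghrl and Hhex had no read in any of the 6 libraries. In bulk samples such as these, fewer cells of a type and less RNA per cell cannot be told apart.

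The symbol SNORD33 was carried mainly by 2 rows. Both shared their reads with Rpl13a, in which GRCr8 places only 1 gene named Snord33, so at least 1 of the rows may belong to another snoRNA, and they are named here by symbol and identifier alone. The major SNORD33 row (ENSRNOG00000053764) had 1123, 1256 and 1334 normalized reads in control lines 5-9, 2 and 16, and 1276, 1149 and 1103 in PWS lines 3, 19-1 and 19-4. Its lowest and highest lines, 19-4 and 16, differed by 1.21-fold, and the 2 groups overlapped. The means were 1238 ± 107 for the control group against 1176 ± 89.6 for the PWS group (SD, n = 3). The log2 fold change, PWS minus control on the scale log2(normalized reads + 1), was -0.07 with a 95% interval from -0.56 to 0.42 (limma adjusted p = 0.972). The interval corresponds to a PWS level between 0.677 and 1.34 times that of control lines.

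The minor SNORD33 row (ENSRNOG00000055560) had 302, 456 and 402 normalized reads in lines 5-9, 2 and 16. In lines 3, 19-1 and 19-4 it had 411, 461 and 414. Line 5-9 was the lowest of the 6, and the values of the PWS lines lay within or just above the control range. The fitted difference was 0.17 on the log2 scale, with an interval from -0.39 to 0.72 (limma adjusted p = 0.934). On leaving out line 5-9 it was -0.00054, so its direction rested on that line. The remaining SNORD33 row (ENSRNOG00000055228) had a single read, in PWS line 3, and was not tested.

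The symbol SNORD34 was carried by 2 rows, which are likewise named here by symbol and identifier alone. The major SNORD34 row (ENSRNOG00000060311) had 1049, 1626 and 1218 normalized reads in lines 5-9, 2 and 16, and 1133, 1263 and 1693 in lines 3, 19-1 and 19-4. Lines 2 and 19-4 stood above the others, 1 from each group, and the groups overlapped. The means were 1298 ± 297 for the control group against 1363 ± 293 for the PWS group (SD, n = 3). PWS minus control came to 0.07 on the log2 scale, with an interval from -0.47 to 0.62 (limma adjusted p = 0.973). It turned to -0.07 without line 5-9 and to -0.09 without line 19-4.

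The minor SNORD34 row (ENSRNOG00000055151) had 235, 476 and 359 normalized reads in control lines 5-9, 2 and 16, and 268, 348 and 357 in PWS lines 3, 19-1 and 19-4. The control lines held both the lowest and the highest value, a 2.02-fold range that enclosed all PWS lines. The log2 fold change was -0.09, with an interval from -0.72 to 0.54 (limma adjusted p = 0.973), and it became 0.15 without line 2 and 0.04 without line 3. The minor row took 18.3%, 22.6% and 22.7% of the reads of the SNORD34 pair in lines 5-9, 2 and 16, and 19.1%, 21.6% and 17.4% in lines 3, 19-1 and 19-4. Reads from closely similar copies can be placed at either copy by an aligner. How alike these 2 rows are in sequence was not examined, so this split may be less certain than the sum of the pair.

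Of the 6 tested rows, Snord35a (ENSRNOG00000060031) had the widest range between lines. It had 126, 277 and 222 normalized reads in control lines 5-9, 2 and 16, from 128, 212 and 288 reads. In PWS lines 3, 19-1 and 19-4 it had 213, 277 and 347 normalized reads, from 358, 264 and 263 reads. Line 5-9 lay below all other lines and line 19-4 above them, a 2.75-fold range, while the remaining control and PWS lines overlapped. Among 82 Snord-named rows outside the PWS domain with a mean of at least 100, this ratio of highest to lowest line ranked as number 2, and the median ratio was 1.64.

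The mean of Snord35a was 208 ± 76.5 for the control group against 279 ± 67.1 for the PWS group (SD, n = 3). The log2 fold change of 0.46, with an interval from -0.22 to 1.15, did not exceed the spread between lines (limma unadjusted p = 0.171, adjusted p = 0.875). Counting error accounted for 5.29% to 8.84% of its value per library, against a spread between control lines of 36.7%. The difference shrank to 0.14 on leaving out line 5-9 and grew to 0.70 on leaving out line 2.

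Snord35b (ENSRNOG00000052300) had 5, 2 and 4 reads in the control lines and 4, 3 and 1 in the PWS lines, too few to test.

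**Figure D1:**
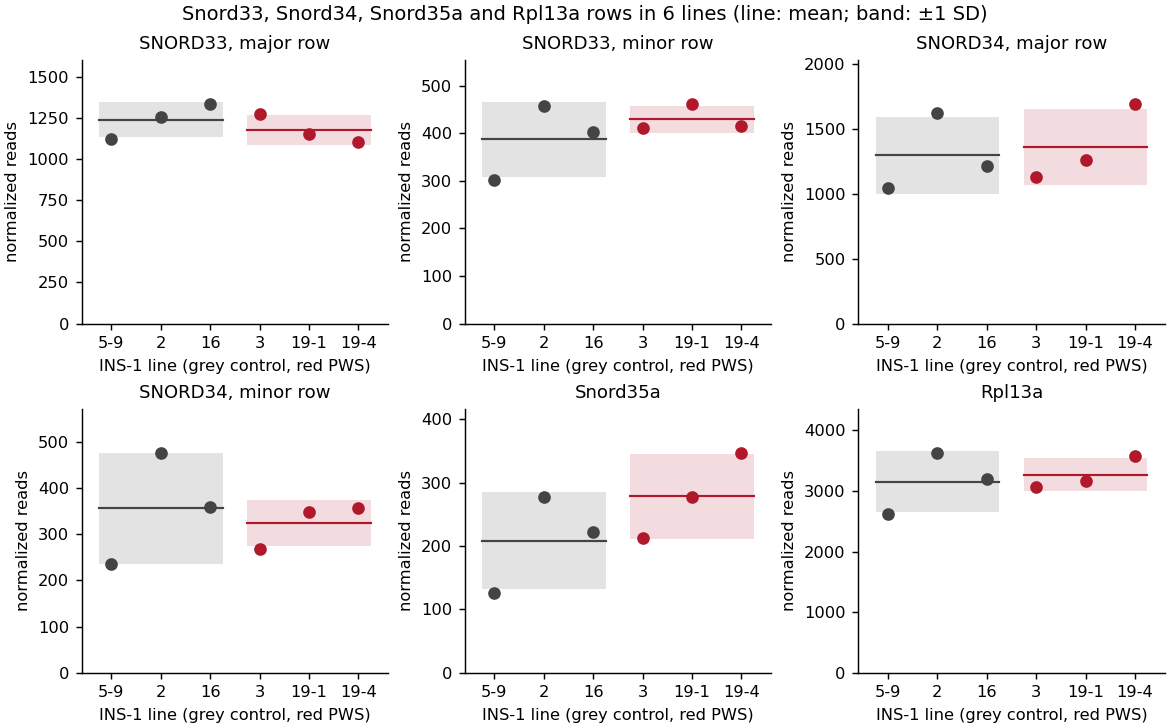
Normalized reads (vertical axis, from 0) of the 5 tested snoRNA rows and the Rpl13a row in each INS-1 line (horizontal axis), with control lines in grey and PWS lines in red; horizontal lines give group means and bands ±1 SD (n = 3). In each panel the groups overlap, and line 5-9 is the lowest in 5 of the 6 rows.

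Across the 6 tested rows, 0 were called by limma, edgeR, DESeq2 or limma-voom, and 0 had an unadjusted p under 0.05 in any of them. The smallest unadjusted p was 0.171 in limma, 0.171 in edgeR, 0.223 in DESeq2 and 0.123 in limma-voom. The share called among all 4292 genes tested was 1.28% in limma, 1.37% in edgeR, 1.35% in DESeq2 and 1.12% in limma-voom. An unadjusted p under 0.05 was given to 5.96% of all genes tested in limma, 5.36% in edgeR, 3.19% in DESeq2 and 5.36% in limma-voom. The 2 groups overlapped in all 6 rows, while 11.2% of all genes tested had groups that did not overlap. The median log2 fold change was 0.07 over the 6 rows, 0.0048 over all genes tested and 0.02 over 94 tested Snord-named rows outside the PWS domain, of which 0 were called. The intervals leave room for differences of the sizes given, so the lines are not shown to hold equal amounts of these RNAs.

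**Figure D2:**
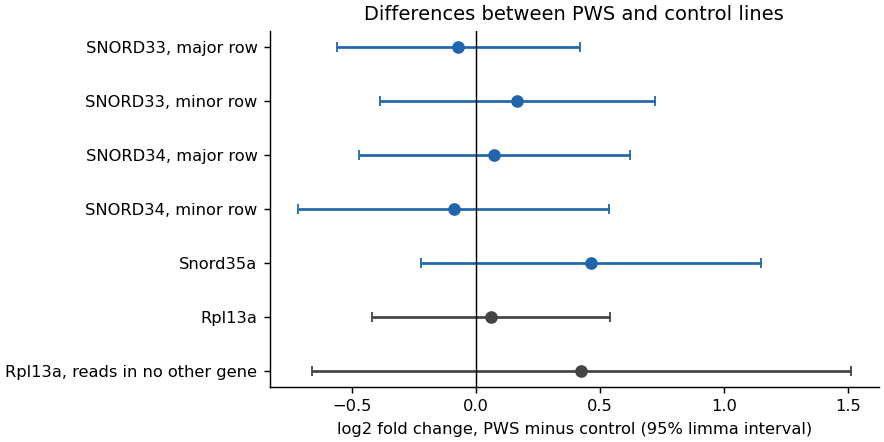
Log2 fold change, PWS minus control (horizontal axis), for the 5 tested snoRNA rows (blue) and for Rpl13a in both counting tables (grey), with 95% limma intervals as bars. Every interval includes 0, and the widest, from -0.66 to 1.51, belongs to the Rpl13a reads shared with no other gene.

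**Figure D3:**
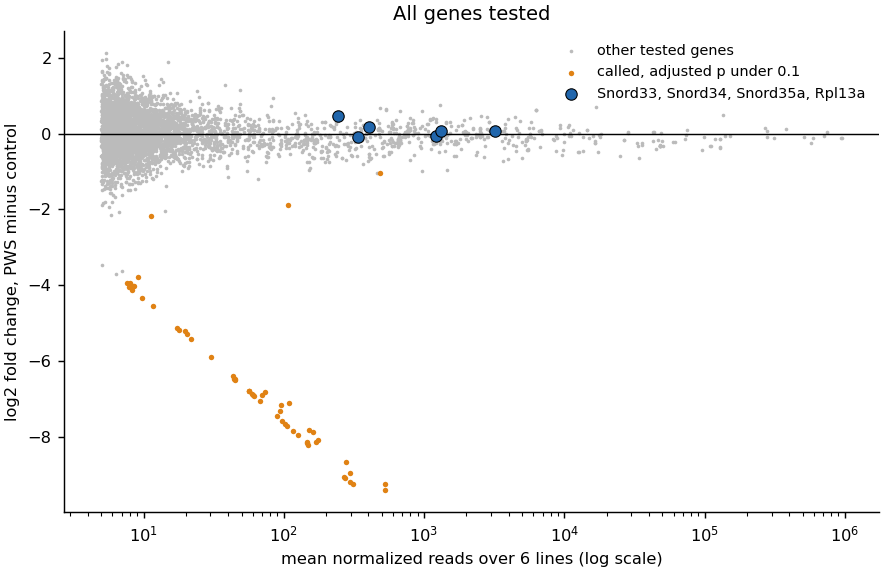
Log2 fold change, PWS minus control, against the mean normalized reads over 6 lines (log axis) for all 4292 genes tested, with the 55 called genes in orange and the 6 member rows in blue. The member rows lie between -0.09 and 0.46, within the main cloud of points. All called genes were lower in the PWS lines, which lack the PWS domain on both chromosomes.

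The Rpl13a row (ENSRNOG00000062298) had 2624, 3625 and 3199 normalized reads in control lines 5-9, 2 and 16, and 3062, 3159 and 3575 in PWS lines 3, 19-1 and 19-4. Lines 2 and 19-4 were again the highest and line 5-9 the lowest. Its log2 fold change was 0.06, with an interval from -0.42 to 0.54 (limma adjusted p = 0.973). It was -0.06 without line 5-9 and -0.0054 without line 19-4.

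These values were not a measure of Rpl13a mRNA. The deposited tables differ in how a read that could belong to several genes was counted: for each of the genes, or for none. Counted for none, the major and minor SNORD33 rows, the major SNORD34 row and Snord35a each fell to 0 reads in every library, and Rpl13a fell from 20458 to 99 reads over the 6 libraries. The reads lost by these 4 snoRNA rows numbered 20327, equal to 99.4% of the Rpl13a row. Library by library they came to 2640 of 2664 Rpl13a reads in line 5-9, 2766 of 2773 in line 2, 4117 of 4146 in line 16, 5107 of 5156 in line 3, 2999 of 3007 in line 19-1 and 2698 of 2712 in line 19-4. The numbers match those of snoRNA reads counted a second time for their host, and the Rpl13a row is thus no independent readout beside them. The 32 shared Rpl13a reads left over were not traced to another gene.

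GRCr8 places 4 snoRNA genes within Rpl13a, namely Snord35a, Snord33 and 2 without a snoRNA symbol. The number equals that of the rows with shared reads, but apart from Snord35a a row could not be matched to a single one of these genes, since the files pair the rows with symbols and not with positions. The minor SNORD34 row, Snord35b and the SNORD33 row with a single read had the same reads in both tables and showed no overlap with Rpl13a or any other gene.

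Rpl13a reads that belonged to no other gene, the fragments closest to host mRNA, numbered 16, 3 and 22 in lines 5-9, 2 and 16, and 38, 7 and 13 in lines 3, 19-1 and 19-4. In normalized reads they averaged 12.2 ± 7.18 for the control group against 15.7 ± 7.72 for the PWS group (SD, n = 3). On the log2 scale the difference was 0.43, with an interval from -0.66 to 1.51 (limma adjusted p = 0.901). In the table without shared reads, 1.33% of 4141 genes tested were called, and neither of the members that could be tested there, Rpl13a and the minor SNORD34 row, was among them.

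**Figure D4:**
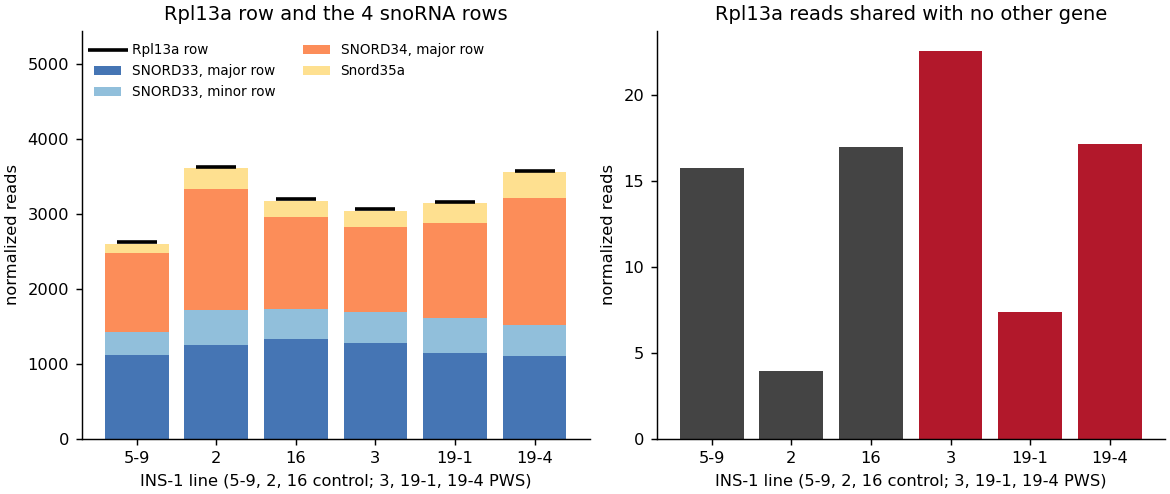
Left, normalized reads of the 4 snoRNA rows that share reads with Rpl13a, stacked for each INS-1 line, with a black mark at the level of the Rpl13a row. Right, normalized reads of Rpl13a shared with no other gene, control lines in grey and PWS lines in red. The mark sits at the top of each stack, and the reads in no other gene lie between 3.92 and 22.6.

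The 4 snoRNA rows that share reads with Rpl13a can be compared as proportions of their sum, which do not depend on how libraries were scaled. Intervals here are 95% Wilson intervals and cover counting error only. Snord35a took 4.85% of the reads of these rows in line 5-9, with an interval from 4.09% to 5.74%. It took 7.66% in line 2, 6.995% in line 16, 7.01% in line 3, 8.80% in line 19-1 and 9.75% in line 19-4, the last with an interval from 8.69% to 10.9%. The control share was 6.50% ± 1.47 and the PWS share 8.52% ± 1.39 (SD, n = 3), and the groups overlapped. The difference of 2.02 percentage points fell to 1.19 without line 5-9.

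The major SNORD33 row took 43.2%, 34.7% and 42.0% in lines 5-9, 2 and 16, and 42.1%, 36.5% and 31.0% in lines 3, 19-1 and 19-4. The major SNORD34 row took 40.3%, 45.0% and 38.4% in the same control lines, and 37.4%, 40.1% and 47.6% in the same PWS lines. The proportions of these major rows thus varied within each genotype by more than the counting intervals, which for the SNORD33 row reached 32.8% at most in line 19-4 and began at 40.7% in line 3. The minor SNORD33 row took 11.6%, 12.6% and 12.7% in the control lines, with intervals that overlapped, and 13.5%, 14.6% and 11.6% in lines 3, 19-1 and 19-4, where the intervals of lines 19-1 and 19-4 did not overlap. The share of the major SNORD33 row was lowest in the 3 libraries with the fewest reads assigned to genes, at 7373691 in line 19-4, 7634142 in line 2 and 10192806 in line 19-1. Snord35a was highest in the same 3 libraries, both as a share and in normalized reads (347, 277 and 277, against 126 to 222 in the other lines). Lines 19-4 and 19-1 are PWS lines and line 2 is a control line. Among the other lines, Snord35a had 126 normalized reads in line 5-9, 222 in line 16 and 213 in line 3. Their libraries held 11823702, 13872493 and 16480475 reads assigned to genes. The part of depth in these values was not tested.

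**Figure D5:**
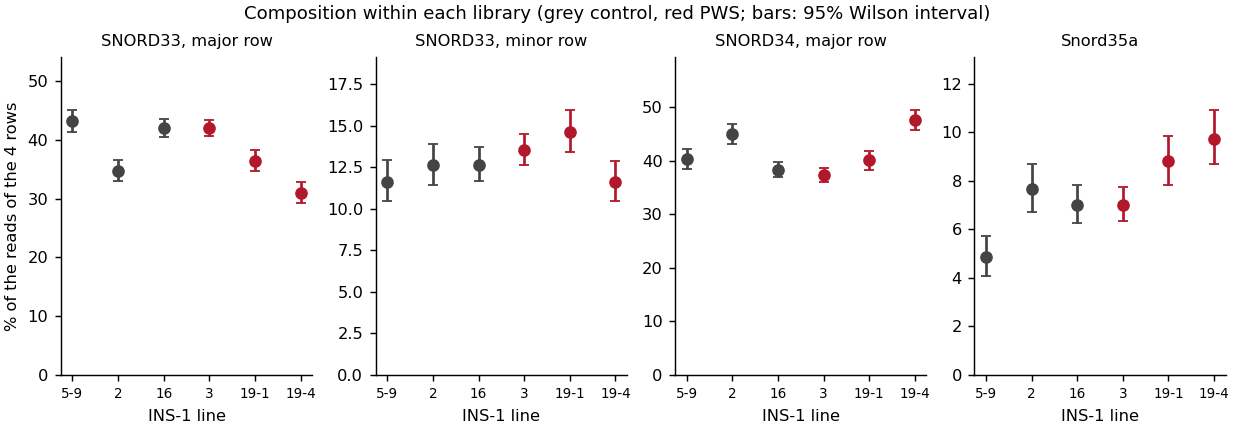
Share of each of the 4 host-overlapping snoRNA rows in their summed reads (percent, vertical axis from 0) by INS-1 line, control in grey and PWS in red, with 95% Wilson intervals as bars. Snord35a is lowest in line 5-9 at 4.85%, and the SNORD33 row runs from 31.0% in line 19-4 to 43.2% in line 5-9.

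Summed over the 7 snoRNA rows, the signal was 2840, 4094 and 3539 normalized reads in lines 5-9, 2 and 16, and 3304, 3501 and 3915 in lines 3, 19-1 and 19-4. The PWS lines all fell between the lowest and the highest control line. The means were 3491 ± 628 and 3574 ± 312 (SD, n = 3), a PWS to control ratio of 1.02. As a share of the reads of all 199 Snord-named rows the sum was 1.86% ± 0.275 for the control group against 1.96% ± 0.224 for the PWS group (SD, n = 3). With the snoRNAs of the deleted domain left out of the total, an alternative added after the data were seen, the shares were 1.94% ± 0.265 and 1.96% ± 0.224. Left to reads that no other gene shares, the sum rests almost wholly on the minor SNORD34 row and was 360 ± 120 for the control group against 327 ± 48.5 for the PWS group (SD, n = 3). No test was run on these sums.

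Other box C/D snoRNAs hosted by ribosomal protein genes were described in the same way. The list was set by symbol, and 28 rows carrying 11 of its 35 symbols were found. Of the 26 rows tested 0 were called in either direction, against 1.28% of all genes tested, 2 had an unadjusted p under 0.05 (5.96% of all genes tested did), and the median log2 fold change was -0.02 (smallest limma adjusted p = 0.831). Snord72, which is hosted by Rpl37, had the highest mean of the list, at 8359 ± 482 normalized reads for the control group against 10380 ± 4752 for the PWS group (SD, n = 3), with a log2 fold change of 0.22 and an interval from -0.35 to 0.79. A SNORD24 row (ENSRNOG00000051436), whose family is hosted by Rpl7a, followed at 6321 ± 1785 and 6808 ± 2694 (SD, n = 3), with a log2 fold change of 0.08 and an interval from -0.53 to 0.69. Line 19-4 was the highest line for both, at 15842 and 9888 normalized reads.

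Among 99 Snord- or Snora-named rows with a mean of at least 100, the pattern over the 6 lines most like that of the summed snoRNA signal belonged to a SNORD83 row (ENSRNOG00000061767), with a Pearson r of 0.96 on log2 values over 6 lines. It had 238, 455 and 330 normalized reads in lines 5-9, 2 and 16, and 330, 362 and 488 in lines 3, 19-1 and 19-4. SNORD39 (ENSRNOG00000054324) followed with an r of 0.90, a pair of SNORD24 rows with 0.89 each and Snord52 (ENSRNOG00000053988) with 0.89. The median r over the 99 rows was -0.14. Line 5-9 was the lowest of the 6 lines in each of these 5 rows, as it was in the summed signal, and all rows share the same libraries and scaling.

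Proteins that bind or assemble box C/D snoRNAs were seen only as mRNA fragments. Of 11 such genes found, 2 reached the level for testing and 0 were called, against 1.28% of all genes tested. Nop56 had 10.9 ± 1.30 normalized reads for the control group against 12.9 ± 6.12 for the PWS group (SD, n = 3), and Nop58 had 7.38 ± 2.44 and 10.7 ± 4.35. Of 15 oxidative stress response genes found, 6 were tested and 0 called, against the same 1.28%, with a median log2 fold change of 0.03. Txnip, a glucose-responsive inhibitor of thioredoxin, had 45.6 ± 22.3 in the control group and 44.0 ± 4.16 in the PWS group, and Sod2, the mitochondrial superoxide dismutase, had 16.2 ± 4.196 and 16.5 ± 5.01 (SD, n = 3). Chga, a secretory granule protein, had 40.9 ± 4.19 in the control group and 38.9 ± 8.63 in the PWS group (SD, n = 3). Of the 14 β-cell genes 11 were tested, 0 were called and 1 had an unadjusted p under 0.05, against 1.28% and 5.96% of all genes tested. The median log2 fold change of these 11 genes was -0.17.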

How the data were processed

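Small RNA libraries of 6 clonal INS-1 lines were made by the authors with a QIAseq miRNA kit, per the labels, and a size selection widened to keep snoRNAs. They collapsed reads with UMI-tools 1.0.0, trimmed them with cutadapt 1.18, aligned them with Bowtie2 2.3.4.2 to Rnor_6.0 with custom annotation and counted them per gene with HTSeq 0.11.2. The deposited values are a signal: counts that the authors divided by a DESeq2 size factor per library. All values above 0 (100%, tolerance 0.001) were whole multiples of 1 value per library, so whole reads were recovered. The main table adds a read to every gene it could belong to, and the other leaves such reads out. Columns with the authors' own fold changes and p-values were not used.

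PWS and control lines were compared with limma-trend (R 4.3.3, limma 3.58.1) on log2(normalized reads + 1), for genes with a mean of at least 5, on genotype alone, with Benjamini-Hochberg adjustment over all 4292 genes tested and a call at an adjusted p under 0.1. edgeR 4.0.16, DESeq2 1.42.0 and limma-voom were run on recovered reads. Further alternatives were a pseudocount of 0.5 or 5, a minimum mean of 1 or 20 or no minimum, TMM and upper-quartile scaling, the table without shared reads, a threshold of 0.05, a replicate block, lines 19-1 and 19-4 averaged, and each line left out. Genes were named by rule: all members, Snord116 as the check of the labels, the 2 most abundant of each list and any called, and the 5 rows most like the summed signal. Some genes of this rule are not reported here. Members and lists were chosen with earlier results of these data known. RefSeq assembly GRCr8 differs from the build of the files and served for names, neighbours and the promoter sequence. Sequences of the snoRNAs were not used here.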

Additional observations from a re-analysis of the deposited data

How the results depend on the processing

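None of the 6 member rows was called under any of the 20 alternatives, in which the smallest adjusted p of a member row was 0.777, for Snord35a with the replicate number as a block. The count of all genes called was 55 and ranged from 41 to 66 over these alternatives. With the replicate block it was 56, with 0 members called. The numbers do not pair the lines: deviations from the group means correlated by 0.414, 0.218 and -0.0574 between lines of the same number, over 1087 genes. The block changed no call among the members.

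Directions close to 0 turned when 1 line was left out. The log2 fold change then ranged from -0.36 to 0.15 for the minor SNORD34 row, from -0.093 to 0.25 for the major SNORD34 row, from -0.00054 to 0.30 for the minor SNORD33 row and from -0.064 to 0.17 for Rpl13a. The major SNORD33 row (-0.14 to -0.02) and Snord35a (0.14 to 0.70) kept their direction in each of 19 alternatives. With shared reads left out, 4 snoRNA rows had no reads and no value. The PWS to control ratio of the summed signal was 1.02, ranged from 0.936 to 1.12 with 1 line left out, falling below 1 without line 5-9 (0.936) or 19-4 (0.975), and was 0.908 with shared reads left out. The difference in its share of Snord-named reads was 0.0969 percentage points and ranged from -0.036 to 0.239 with 1 line left out. It was below 0 without line 5-9 (-0.036) or 19-1 (-0.028) and with shared reads left out (-0.012). With 1 line left out, the PWS minus control difference in share of the 4 rows that overlap Rpl13a ranged from 1.19 to 2.77 percentage points for Snord35a, from -6.22 to -0.695 for the major SNORD33 row, from 0.294 to 1.79 for the minor SNORD33 row and from -2.50 to 2.61 for the major SNORD34 row. The number of lines per group (3) and the spread between clones limit what could be detected, with intervals on the PWS to control fold of 0.677 to 1.34 at the narrowest snoRNA row and 0.857 to 2.22 for Snord35a.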
